A study of Rattus norvegicus with 38 samples.

Results

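The genes described here are those of the cytotoxic granule and of natural killer (NK) cells: Prf1, Gzma, Gzmb, Gzmk, Gzmm, Klrd1, Ncr1, Nkg7, Ctsw and Faslg. They were chosen by symbol in the array's probe annotation. Of the 10 symbols, 9 were listed, each with 1 probe, out of 20277 probes and 9651 named genes, and Gzmb was not analysed here. Each gene was followed across untreated male F344 (Fischer) rats of 3 ages, and each 18-month rat was set against the rest of its study.

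Cytotoxic lymphocytes, which are NK cells and killer T cells, store perforin and granzymes in granules and release them onto a target cell. Perforin opens pores in the target's membrane, and the granzymes, which are serine proteases, enter and cut proteins there. In the liver these lymphocytes reside in the sinusoids. F344 rats are known for large granular lymphocyte leukaemia, a tumour of cells that carry such granules and that spreads through spleen and liver in old animals.

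RNA came from the left liver lobe of 38 sentinel rats, untreated animals housed with long toxicity studies, and the chemical in a study's name was not given to them. At 6 months (about 32 weeks of age) there were 15 rats, 5 per study, housed with DMPT, with Pyrogallol or with pulegone. At 12 months (about 58 weeks) there were 10, of which 5 belonged to 1,2-dibromo-2,4-dicyanobutane and another 5 to bis_2-chloroethoyl_methane. At 18 months (about 84 weeks) there were 13, of which 5 belonged to beta-myrcene, 5 to 5-hydroxymethyl-2-furfural and 3 to isoeugenol. Each liver was hybridised on its own 2-colour array against 1 pool of RNA from 63 such rats, so a rat's score says how it stands relative to that pool, in units of the SD of its own array. Scores of different genes are not set against each other, no absolute level of a liver or lymphocyte marker can be read from them, and in whole liver more cells of a type and more RNA per cell cannot be told apart. Liver sections were examined by the submitters, and what was found in any rat, leukaemia included, is not given in the sources used here. Rat numbers within a study follow the order of the deposited samples.

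Some arrays stood apart. The means of the DMPT and Pyrogallol arrays, whose titles write the age in another way than the other 28 arrays, correlated below 0 with 5 of the other 6 studies over all probes. DMPT lay at -0.25 to -0.50 and Pyrogallol at -0.29 to -0.51, lowest against 1,2-dibromo-2,4-dicyanobutane, and with bis_2-chloroethoyl_methane they were at 0.05 and 0.08. The 12-month studies were at -0.14 with each other. The direction of the DMPT and Pyrogallol arrays is not settled, although the labels give the same dyes. Age differences that rest on these arrays are also given with their sign turned, except where rats or a study were left out or another setting was changed. Among the oldest rats, rat 2 of the 5-hydroxymethyl-2-furfural study differed from the rest of its study at 1184 probes (5.84% of those tested; limma, adjusted p under 0.05), against at most 141 for any other 18-month rat.

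In 2 of the 13 rats of 18 months, several granule genes stood high together: rat 4 of the 5-hydroxymethyl-2-furfural study and rat 5 of the beta-myrcene study. Both had the protease genes Gzmk, Gzma and Gzmm above every other rat of their study, together with Nkg7, whose product sits in the granule membrane and is needed for granule release in mice, and Prf1, the perforin gene. For the surface receptors Klrd1 and Ncr1, the protease gene Ctsw and the ligand gene Faslg, no unadjusted p was under 0.05 in either rat. These rats were picked out after the values were seen, as the only ones of the 38 with 4 or more of the 9 genes at an unadjusted p under 0.05, and none of the 9 passed the adjusted threshold in either. In the other 36 rats that count was at most 2.

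The promoters of the 5 genes that were high together are shown because their start regions can be set beside each other. They are RefSeq sequences of the GRCr8 build, from 250 bases before to 50 bases after the gene's start, in the gene's own direction. Capitals mark the letters of 3 motifs searched on both strands: GGTGTGA (bound by T-box factors), TGTGGT (Runx factors, ACCACA on the other strand) and AGGAAGT (Ets factors, ACTTCCT on the other strand).
Gzmk (chr2:46581966-46582265, minus strand): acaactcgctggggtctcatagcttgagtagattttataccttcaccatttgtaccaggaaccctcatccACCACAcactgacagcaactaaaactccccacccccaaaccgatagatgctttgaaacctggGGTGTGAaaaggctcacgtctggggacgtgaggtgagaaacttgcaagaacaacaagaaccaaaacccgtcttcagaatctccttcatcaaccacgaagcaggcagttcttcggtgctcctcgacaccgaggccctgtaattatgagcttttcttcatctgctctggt
Gzma (chr2:46485647-46485946, minus strand): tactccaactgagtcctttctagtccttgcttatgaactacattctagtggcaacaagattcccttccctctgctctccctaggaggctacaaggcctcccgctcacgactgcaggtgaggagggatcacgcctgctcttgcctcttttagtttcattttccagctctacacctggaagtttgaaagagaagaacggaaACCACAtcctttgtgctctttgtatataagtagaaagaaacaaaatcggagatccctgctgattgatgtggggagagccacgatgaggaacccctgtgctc
Gzmm (chr7:10667207-10667506, minus strand): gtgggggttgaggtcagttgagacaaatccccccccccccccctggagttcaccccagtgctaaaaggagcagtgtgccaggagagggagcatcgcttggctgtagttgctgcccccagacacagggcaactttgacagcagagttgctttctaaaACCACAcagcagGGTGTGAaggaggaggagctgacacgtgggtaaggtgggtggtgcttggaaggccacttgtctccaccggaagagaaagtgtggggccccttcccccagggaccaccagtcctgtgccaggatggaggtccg
Prf1 (chr20:29788790-29789089, plus strand): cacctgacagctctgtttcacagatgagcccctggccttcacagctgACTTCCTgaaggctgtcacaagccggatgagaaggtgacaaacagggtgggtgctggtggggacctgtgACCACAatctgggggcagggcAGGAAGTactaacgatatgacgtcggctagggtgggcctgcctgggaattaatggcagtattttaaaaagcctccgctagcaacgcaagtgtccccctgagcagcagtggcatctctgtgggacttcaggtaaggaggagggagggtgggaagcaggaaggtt
Nkg7 (chr1:102981247-102981546, plus strand): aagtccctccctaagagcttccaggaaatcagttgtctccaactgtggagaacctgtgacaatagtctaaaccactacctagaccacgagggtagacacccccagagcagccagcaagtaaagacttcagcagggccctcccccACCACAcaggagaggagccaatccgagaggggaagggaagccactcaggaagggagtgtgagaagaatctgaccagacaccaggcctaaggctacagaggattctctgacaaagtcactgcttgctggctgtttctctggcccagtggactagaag

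Of the 9 measured genes, 6 had an entry in the promoter table, Faslg being the sixth. TGTGGT was found in 5 of the 6 (all but Faslg), against 17.3% of 33469 promoters of the same length. GGTGTGA was found in Gzmk and Gzmm, against 3.8% of all promoters. AGGAAGT was found in Prf1 and Faslg, against 8.4%. A match is a run of letters only, and the 6 were not picked at random. Gzma and Gzmk lie next to each other on chromosome 2, with 0 genes listed between them.

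Gzmk encodes granzyme K, a protease of NK cells and memory T cells. In the 5-hydroxymethyl-2-furfural study its score was 4.15 in rat 4, against 0.05, 0.21, 1.45 and 0.66 in rats 1, 2, 3 and 5. That score was the highest of the 38 rats. The difference was 3.55 (SE 0.85; unadjusted p 0.000215, limma adjusted p 0.688), and Gzmk ranked 6 of 20277 probes by the size of its test statistic in this rat. In the beta-myrcene study the score was 2.70 in rat 5, against 0.06, -1.21, -0.37 and 0.28 in rats 1 to 4. It was the second highest of all rats, and the difference was 3.00 (SE 0.91; unadjusted p 0.00254, limma adjusted p 0.348). The isoeugenol rats had 0.87, 1.19 and -0.19, inside the range of the remaining 18-month rats.

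Gzma encodes granzyme A, a protease abundant in NK cells. Its score was 2.37 in rat 4 of the 5-hydroxymethyl-2-furfural study, against 0.38, -0.46, 0.90 and 0.93 in the rest (difference 1.94, SE 0.57, unadjusted p 0.00192, limma adjusted p 1). It was 1.77 in rat 5 of the beta-myrcene study, against 0.35, -0.18, -0.75 and 0.25 in the rest (difference 1.85, SE 0.58, unadjusted p 0.00331, limma adjusted p 0.369). These were the 2 highest Gzma scores of the 38 rats. The 6-month pulegone rats came next to them, at 0.94 to 1.65, so a high Gzma score alone did not mark the oldest rats. On log ratios recovered from the even spacing of each array's scores, rat 5 had 0.450, below 0.728 and 0.453 in pulegone rats 1 and 3.

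Gzmm encodes granzyme M, a protease found mainly in NK cells. It varied little, with an SD within studies of 0.27, at percentile 17.9 of all probes, where Gzmk had 0.96, at percentile 84.5. Rat 4 of the 5-hydroxymethyl-2-furfural study had 0.90, against -0.28, -0.26, 0.31 and -0.26 in the rest. The difference of 1.02 (SE 0.26; unadjusted p 0.000485, limma adjusted p 0.820) ranked 12 of 20277 probes. Rat 5 of the beta-myrcene study had 0.41, against -0.55 to 0.13 in the rest (difference 0.63, SE 0.30, unadjusted p 0.0415, limma adjusted p 0.754). Both again took the first and second place of the 38 rats by score. On recovered log ratios rat 5 had 0.114, below 0.136 in rat 3 of the 5-hydroxymethyl-2-furfural study.

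Prf1 was 1.67 in rat 4 of the 5-hydroxymethyl-2-furfural study, against -0.75, 0.17, -0.08 and 0.36 in the rest, the highest of the 38 rats. Its difference of 1.75 (SE 0.44; unadjusted p 0.000422, limma adjusted p 0.820) ranked 10 of 20277 probes. In rat 5 of the beta-myrcene study Prf1 was 0.72, against -0.86 to 0.43 in the rest, a difference of 0.89 (SE 0.52, unadjusted p 0.0960, limma adjusted p 0.867). Nkg7 was 0.94 in rat 4, against -0.14 to 0.62 in the rest of its study (difference 0.81, SE 0.36, unadjusted p 0.0331, limma adjusted p 1). It was 1.00 in rat 5 of the beta-myrcene study, against -0.55 to 0.25 in the rest (difference 1.11, SE 0.33, unadjusted p 0.00233, limma adjusted p 0.341). The 2 rats held the 2 highest Nkg7 scores of all 38. By the size of the test statistic, Gzma ranked 24 and Nkg7 326 of 20277 probes in rat 4. In rat 5 of the beta-myrcene study the ranks of 20273 probes were 145 for Gzmk, 182 for Gzma and 138 for Nkg7. Gzmm ranked 1115 there and Prf1 2245.

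The remaining 4 genes had smaller differences against their spread in both rats. Klrd1 encodes CD94, which pairs with NKG2 receptors on NK cells, and its score was 0.71 in rat 4 of the 5-hydroxymethyl-2-furfural study, against -1.09 to 0.85 in the rest. Ncr1 encodes NKp46, a receptor that defines NK cells in most mammals, and its score was 0.57 there, above the -0.25 to 0.17 of the rest (difference 0.56, SE 0.73). Ctsw encodes cathepsin W, a cysteine protease of NK and killer T cells, at -1.24 in that rat, against -1.88 to -0.04. Faslg encodes the Fas ligand, a death-receptor ligand on killer cells, at -0.16, below the 0.10 to 0.85 of the rest (difference -0.61, SE 0.37). In rat 5 of the beta-myrcene study the order differed for Faslg, whose 0.88 was the highest score of the 38 rats, against 0.25 to 0.55 in the rest of the study. Klrd1 (0.47), Ncr1 (0.15) and Ctsw (-0.96) in that rat lay inside the range of the others. On recovered log ratios its Faslg value was 0.232, below 0.235 in rat 1 of the same study.

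**Figure D1:**
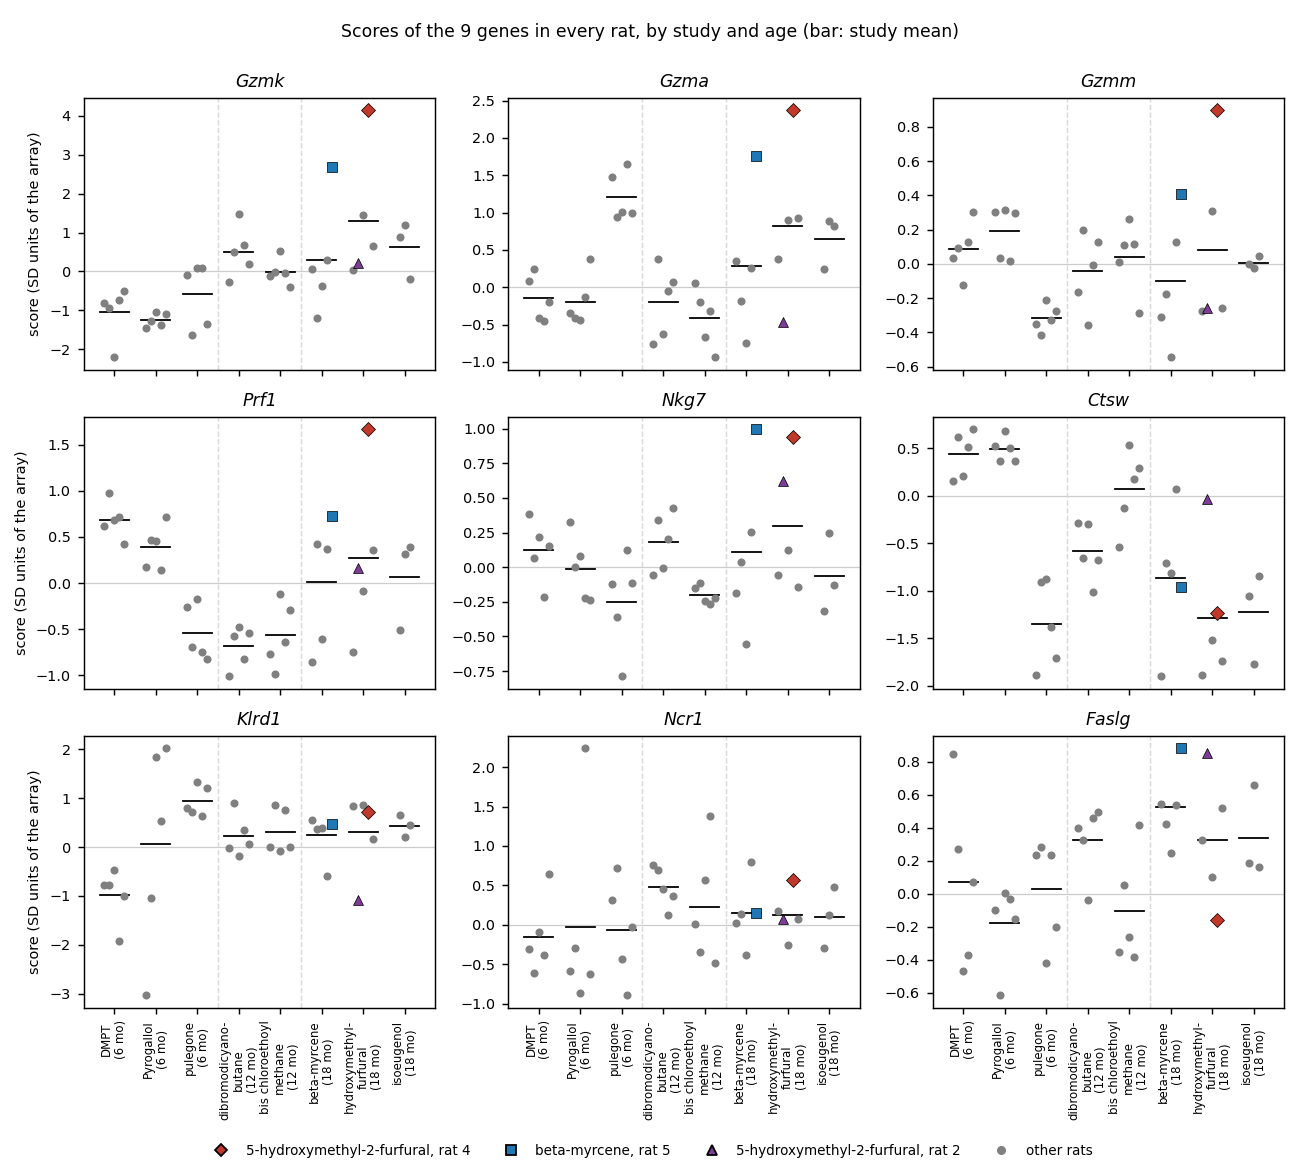
Score of each of the 9 genes (vertical axis, SD units of the array, own scale in each panel) in every rat, with studies ordered by age from 6 to 18 months; the bar is the study mean. In the 5-hydroxymethyl-2-furfural study, rat 4 (red diamond) is the highest of the 38 rats for Gzmk, Gzma, Gzmm and Prf1, and rat 5 of the beta-myrcene study (blue square) is the highest of the 38 for Nkg7 and Faslg.

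Counted over the genes, 8 of 9 lay above the rest of the study in rat 4, with a median difference of 0.81, beside a median of 0.02 over all 9651 genes. Of the 9, 5 were higher at an unadjusted p under 0.05, beside 1.08% of all probes, and 0 passed the adjusted threshold, beside 0.00493% (limma). In rat 5 of the beta-myrcene study 8 of 9 lay above the rest, with a median of 0.63 beside -0.01 over all genes. There 4 were higher at an unadjusted p under 0.05, beside 3.52% of all probes, and 0 passed the adjusted threshold, beside 0.074% (limma). The mean score over the 9 genes was 1.10 in rat 4, against -0.13 to 0.21 in the rest of its study, and 0.79 in rat 5, against -0.38 to 0.23, the first and second of the 38 rats. The first and second places among the 38 given here for these genes, their mean, Ccl5, Klre1 and Tbx21 did not change when the DMPT and Pyrogallol scores were given the opposite sign. They are places of scores, in units of each array's SD. On recovered log ratios rat 5 of the beta-myrcene study did not hold them for Gzma, Gzmm or Faslg. For Nkg7 it lay below rat 4 of the 5-hydroxymethyl-2-furfural study (0.260 against 0.302). Without rat 2, the array that stood apart, rat 4's differences were 3.43 for Gzmk, 1.83 for Prf1, 1.64 for Gzma, 0.97 for Gzmm and 0.97 for Nkg7, and the count stayed at 5. Set against all other 18-month rats in place of its own study, rat 5 of the beta-myrcene study had 1 gene at an unadjusted p under 0.05 instead of 4.

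**Figure D2:**
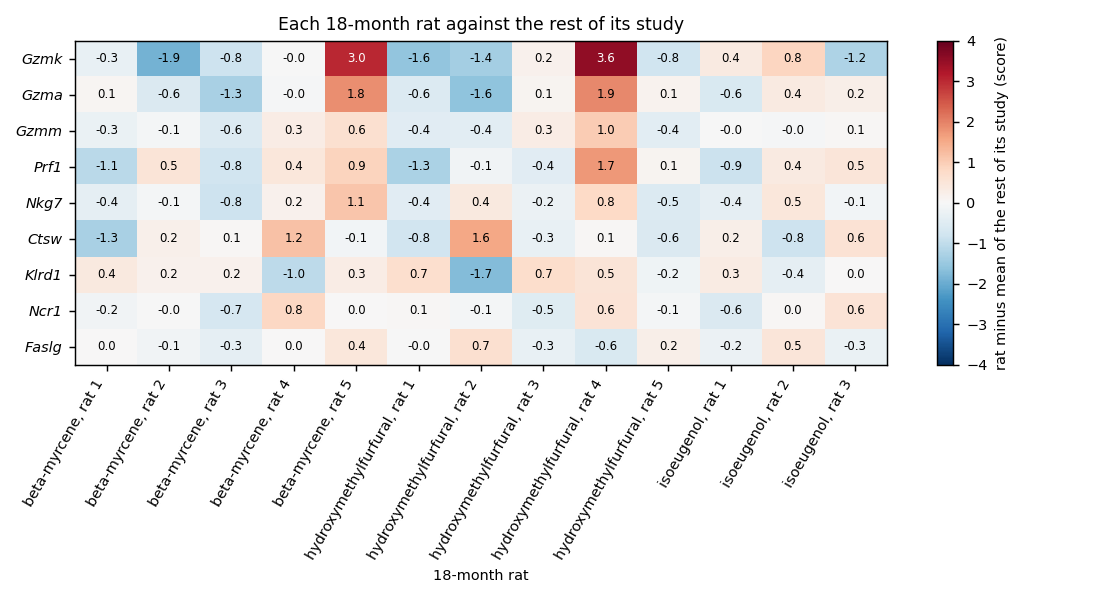
Difference between each 18-month rat (columns) and the mean of the other rats of its study for the 9 genes (rows), as colour and number in score units. Red runs from Gzmk to Nkg7 in rat 4 of the 5-hydroxymethyl-2-furfural study and rat 5 of the beta-myrcene study, and Ctsw, Klrd1 and Ncr1 are paler in both.

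Other genes of the same cells were described from lists. In rat 4 of the 5-hydroxymethyl-2-furfural study, Ccl5, a chemokine that killer lymphocytes store and secrete, was 3.63, the highest of the 38 rats (difference 2.93, SE 0.71, limma adjusted p 0.688). Klre1, an NK receptor gene, was 2.95 and also the highest (difference 2.16, SE 0.63, limma adjusted p 1). Tbx21, which encodes the T-box factor T-bet, was 3.49 and the highest as well, against -0.20 to 2.97 in the rest of the study. Of 16 other NK receptor and adaptor genes, 11 lay above the rest of the study, with a median of 0.23. Of 20 other genes of granules, secretion and cell death, 10 did, with a median of -0.001. Of 18 regulators and cytokines, 13 did, with a median of 0.17. Of 15 chemokines and homing receptors, the list that holds Ccl5, 7 did, with a median of -0.13.

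In rat 5 of the beta-myrcene study Ccl5 was 2.38, the second highest of the 38 (difference 2.09, SE 0.79, limma adjusted p 0.567), and Klre1 was 1.60, also the second highest. Gzmc, a granzyme gene, differed by 2.23 (SE 0.74, limma adjusted p 0.450). Tbx21 was 1.35 in that rat, inside the range of the rest (0.42 to 3.16). Of the 16 other NK receptor and adaptor genes 7 lay above the rest, with a median of -0.10. Of the 20 granule, secretion and cell death genes 10 did (median -0.004), of the 18 regulators and cytokines 3 (median -0.23) and of the 15 chemokines and homing receptors 7 (median -0.02). No gene of these 4 lists passed the adjusted threshold in either rat.

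Markers of other cell types were counted beside them. In rat 4 of the 5-hydroxymethyl-2-furfural study 7 of 18 T cell markers lay above the rest, with a median of -0.11, and the mean of the list was 0.36, against 0.33 to 0.58 in the rest. Cd3e, a chain of the T cell receptor complex, differed by 0.12 there, and Cd8a, a marker of killer T cells and some NK cells, by 0.73 (unadjusted p 0.0244, limma adjusted p 1). By score, Cd8a was the second highest of the 38 rats there (1.22) and the highest in rat 5 of the beta-myrcene study (1.24). In rat 5 of the beta-myrcene study 14 of 18 lay above the rest, with a median of 0.41, and the mean of the list was 0.61, against 0.11 to 0.51 in the rest. Macrophage markers had a mean of -0.32 in rat 4, against -0.11 to 0.54 in the rest, with 6 of 16 above it. In rat 5 dendritic cell markers lay above the rest for 5 of 6 genes, with a median of 0.77. Neutrophil markers lay above the rest for 6 of 6 genes in rat 4 and for 3 of 6 in rat 5, each with a median of 0.17. The difference between the rats was not tested, and the part of these other cells in the scores of the 9 genes was not tested.

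**Figure D3:**
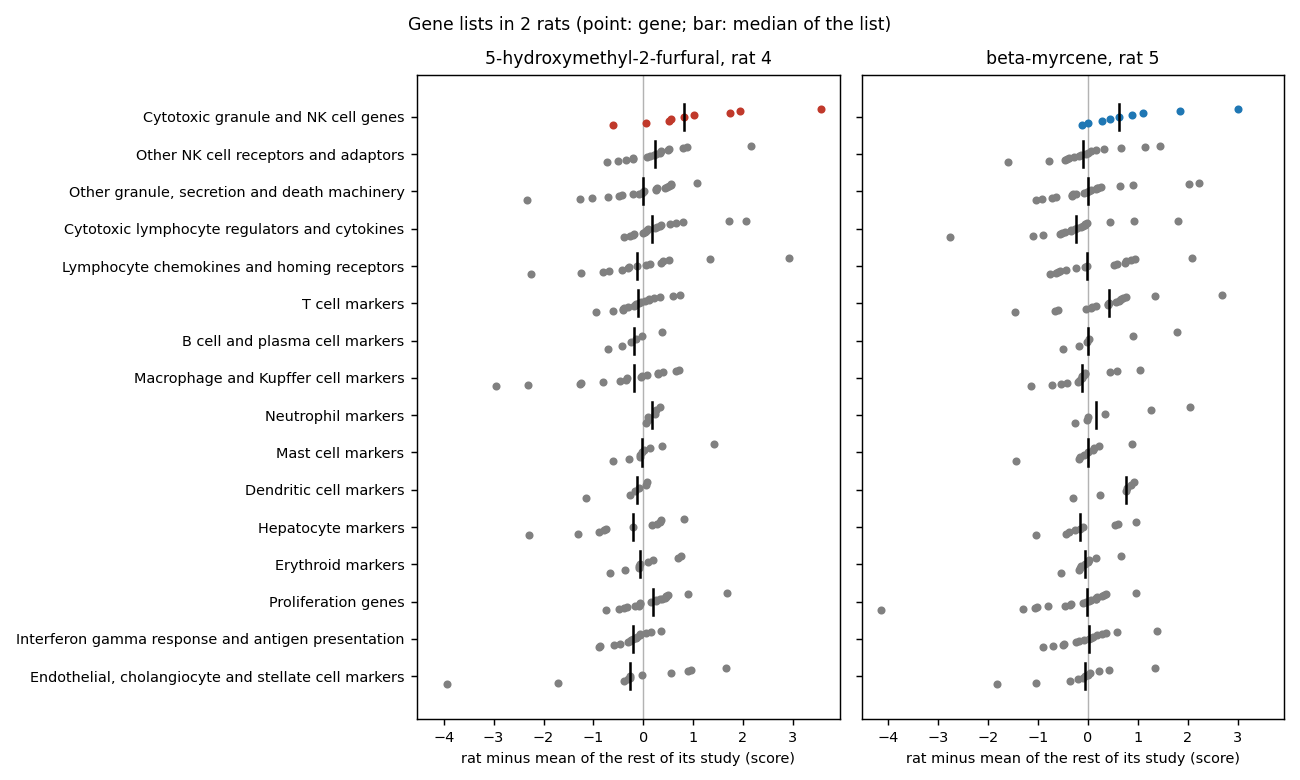
Difference from the rest of the study (horizontal axis, score units) for each gene of 16 lists in rat 4 of the 5-hydroxymethyl-2-furfural study (left) and rat 5 of the beta-myrcene study (right); points are genes and bars are list medians. The 9 cytotoxic granule and NK cell genes (coloured) have medians of 0.81 and 0.63, and the T cell markers have -0.11 and 0.41.

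In other 18-month rats some of these genes differed from the rest at an unadjusted p under 0.05, without passing the adjusted threshold. Of all probes, 8.55%, 7.37% and 12.5% had such a p (limma) in rats 1, 3 and 4 of the beta-myrcene study. In rat 1 of the 5-hydroxymethyl-2-furfural study it was 1.93%. In rat 1 of the beta-myrcene study Ctsw (-1.90) and Prf1 (-0.86) differed by -1.30 and -1.08 (unadjusted p 0.0113 and 0.0405; limma adjusted p 0.512 and 0.573). Ctsw was 0.07 in rat 4 of that study, a difference of 1.17 (unadjusted p 0.0242, limma adjusted p 0.305). In rat 3 of the beta-myrcene study Gzma (-0.75) and Nkg7 (-0.55) were the lowest of the study, with differences of -1.30 and -0.83 (unadjusted p 0.0460 and 0.0279; limma adjusted p 0.665 and 0.600). In rat 1 of the 5-hydroxymethyl-2-furfural study Prf1 differed by -1.28 (unadjusted p 0.0142, limma adjusted p 1.00).

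Rat 2 of that study gave the only call among the 18-month rats. Ctsw was -0.04 in rat 2, against -1.88, -1.52, -1.24 and -1.75 in the rest, and was higher by 1.56 (SE 0.46, limma adjusted p 0.0382). This is 1 of 9 genes, beside 5.84% of all probes in that rat, and the call was lost without rat 1 (adjusted p 0.0734) or without rat 5 (adjusted p 0.0637) of the study. Gzma ran the other way in rat 2, at -0.46 (difference -1.61, limma adjusted p 0.105), and so did Klrd1 at -1.09 (difference -1.73, limma adjusted p 0.286). The probes with the largest rises in that rat were those of Smc2, Lrpprc, Megf9, Lrrc34, Ttbk2, Hip1, Rest, Fbxo5, Akirin2 and Ptk2, with differences of 8.43 to 14.9. Smc2, Lrpprc, Hip1 and Rest also had other probes, whose values are not given here. The largest falls were those of Slc15a1, Heph, Ccdc65, Hnmt and Sycp2.

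Among the 25 younger rats, the 2 largest differences of these genes were both in receptors and both in the Pyrogallol study, where the direction is not settled. Klrd1 scored -3.03 in rat 1, against -1.04, 1.84, 0.53 and 2.03 in rats 2 to 5 (difference -3.87, SE 0.73, limma adjusted p 0.00790). Ncr1 scored 2.24 in rat 4, against -0.59, -0.29, -0.87 and -0.63 in the rest (difference 2.84, SE 0.53, limma adjusted p 0.00454). Each was the only 1 of the 9 genes called in its rat, beside 0.148% of all probes in rat 1 and 0.36% in rat 4. Gzmk in the same study spanned -1.47 to -1.04.

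The 5 genes that stood high together in the 2 rats were grouped because of those rats. After each study's mean was taken off, the correlation over 38 rats was 0.74 between Gzmm and Gzma, 0.71 between Gzma and Gzmk, 0.70 between Gzmm and Gzmk and 0.56 between Gzmk and Prf1. Without the 2 high rats these were 0.55, 0.43, 0.44 and 0.25. Gzma and Prf1 had 0.52 with the 2 rats and 0.22 without them, and Nkg7 and Gzmk 0.49 and 0.11, so the 2 rats carried part of each. Ctsw ran against Gzma (-0.37, and -0.48 without the 2 rats). All values of a rat share 1 array, and the correlations are descriptions.

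**Figure D4:**
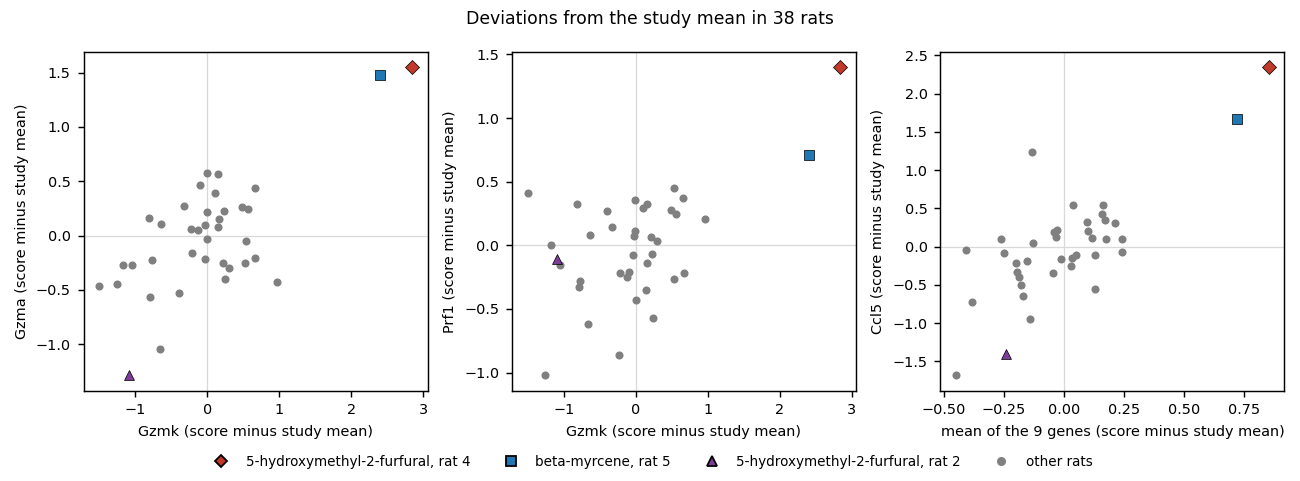
Score minus study mean for Gzma and Prf1 against Gzmk, and for Ccl5 against the mean of the 9 genes, in 38 rats. Rat 4 of the 5-hydroxymethyl-2-furfural study (red diamond) and rat 5 of the beta-myrcene study (blue square) lie at the upper right of each panel, apart from the others, and the correlation of Gzma with Gzmk is 0.71 with them and 0.43 without them.

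The 10 other genes whose deviations were most like the mean of the 9, of 9634 genes and over 38 rats, were Ccl5 (Pearson r 0.75), Cdhr1 (0.71), Sema4a (0.64), Fads1 (0.64), Rpn1 (0.62), Klre1 (0.58), Nat8 (0.57), Slc22a7 (0.54), Klra5 (0.54) and Gsap (0.54). Ccl5, Klre1 and Klra5 are genes of lymphocytes. Spearman's rho for Ccl5 was 0.61. Without the 2 high rats Ccl5 had 0.53 and ranked 4, Klra5 had 0.43, Klre1 had 0.28 and Cdhr1 had 0.39, and 1 of the 10 genes stayed among the first 10. Cdhr1 itself was 4.23 in rat 4 of the 5-hydroxymethyl-2-furfural study, against -0.07 to 1.60 in the rest, and 3.44 in rat 5 of the beta-myrcene study, against -0.41 to 0.89. T cell markers had a median r of 0.00 with the mean of the 9, and other NK receptor and adaptor genes 0.05, beside 0.01 over all genes. Among the T cell markers r ran from -0.24 to 0.49, and Cd8a had the highest.

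The age comparisons asked whether the liver's granule and NK genes change as a rat grows old. None of the 9 passed the threshold between any pair of ages (limma, study as a random block). Between 18 and 6 months 13.5% of probes did, between 12 and 6 months 0.291% and between 18 and 12 months 0%. At an unadjusted p under 0.05, Gzmk and Ctsw differed between 18 and 6 months, and none of the 9 differed in the other comparisons. By the size of the test statistic Gzmk ranked only 4332 and Ctsw 4496 of 20277 probes, so many other probes differed more strongly. The share of all probes at that unadjusted p is not given here.

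Gzmk had a lowest, median and highest score of -1.21, 0.28 and 4.15 at 18 months, against -2.21, -1.04 and 0.09 at 6 months, and the ranges overlapped. The difference was 1.71 (SE 0.71, limma adjusted p 0.0968), and without the 2 high rats it was 1.25 (limma adjusted p 0.0745). With the sign of the DMPT and Pyrogallol arrays turned it was 0.18 (limma adjusted p 0.999). The 12-month rats lay at -0.41, 0.08 and 1.47, a difference of 1.21 from 6 months (SE 0.78, limma adjusted p 0.628), which was -0.32 with the sign turned.

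Ctsw scored -1.90, -1.06 and 0.07 (lowest, median, highest) at 18 months, against -1.88, 0.36 and 0.70 at 6 months. The difference was -0.98 (SE 0.41, limma adjusted p 0.103), and -0.36 with the sign turned (limma adjusted p 0.931). It lay below the 6-month value where Gzmk lay above it. Leaving out rat 2 of the 5-hydroxymethyl-2-furfural study gave -1.08 (limma adjusted p 0.0428). Leaving out the pulegone study gave -1.58 (limma adjusted p 0.000147) for Ctsw and 1.90 (limma adjusted p 0.0124) for Gzmk. In that fit the 6-month rats are those of DMPT and Pyrogallol alone, whose direction is not settled, and no value with the sign turned is given. Against pulegone alone Ctsw differed by 0.24 (SE 0.46), the opposite sign, and Gzmk by 1.33 (SE 0.87).

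Faslg was 0.43 higher at 18 months than at 6 months (SE 0.26, limma adjusted p 0.277), and the other 6 genes differed by -0.06 to 0.32 with adjusted p of 0.741 or more. With the sign turned Faslg differed by 0.36 (limma adjusted p 0.742). The other 6 then ran from -0.30 for Klrd1, which had the 0.32, to 0.66 for Prf1, which had the -0.06, with adjusted p of 0.504 or more. Prf1 was -0.86, 0.31 and 1.67 (lowest, median, highest) at 18 months, against -0.82, 0.42 and 0.97 at 6 months. At 12 months Prf1 scored below 0 in all 10 rats, at -1.01, -0.61 and -0.11. The difference from 6 months was -0.80 (SE 0.42, limma adjusted p 0.512), and -0.09 with the sign turned. For 18 over 12 months the Prf1 difference was 0.74 (SE 0.42, limma adjusted p 0.873). Gzma differed by 0.89 between 18 and 12 months (SE 0.52, limma adjusted p 0.876).

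The pulegone study is the only 6-month study whose titles share the style of the 18-month ones. Against it, 0 of the 9 genes were called at 18 months, beside 0.0395% of all probes (limma, 28 arrays). Gzmk differed by 1.33 (SE 0.87, limma adjusted p 1.00), and by 0.87 without the 2 high rats. Prf1 was 0.66 higher (SE 0.44), and Gzma (-0.63, SE 0.54) and Klrd1 (-0.62, SE 0.41) were lower at 18 months, each with a limma adjusted p of 1.00.

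**Figure D5:**
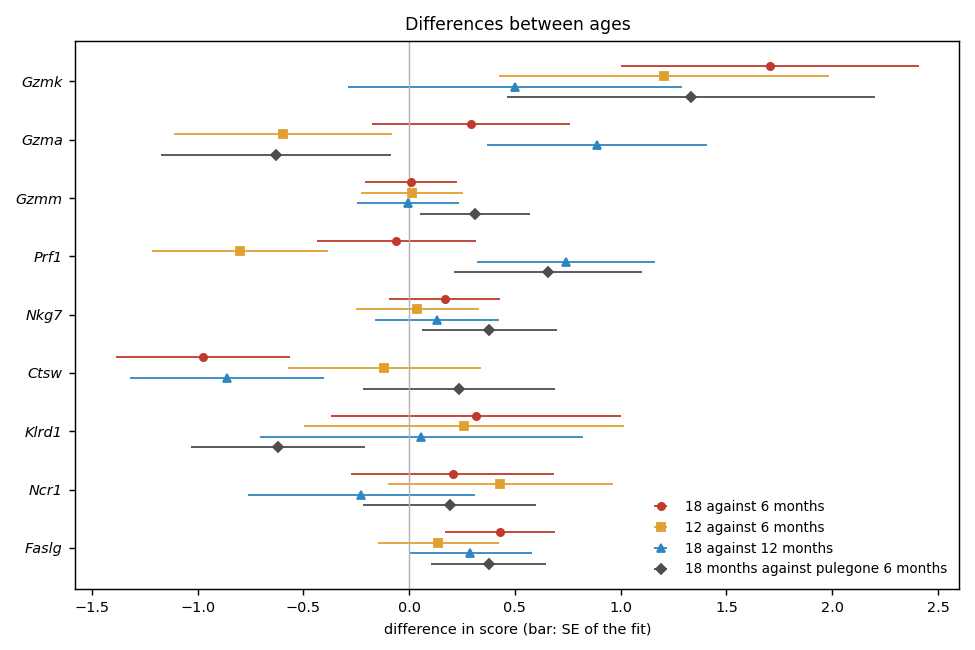
Difference in score between ages for the 9 genes, with the SE of the limma fit as bars, for 18 against 6, 12 against 6 and 18 against 12 months and for 18 months against the 6-month pulegone study alone. Gzmk is at 1.71 and Ctsw at -0.98 between 18 and 6 months, and against pulegone alone they are at 1.33 and 0.24.

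Studies of the same age differed for 3 of the 9 genes, beside 62.5% of all probes (limma F test over the studies, adjusted p under 0.05): Ctsw (adjusted p 1.18e-05), Gzma (0.00942) and Prf1 (0.0158). The 6-month studies lay far apart. Ctsw averaged -1.35 ± 0.45 in the pulegone study, against 0.44 ± 0.24 in DMPT and 0.49 ± 0.13 in Pyrogallol (SD, 5 rats each). Gzma averaged 1.21 ± 0.33 in pulegone, against -0.15 ± 0.30 in DMPT and -0.19 ± 0.34 in Pyrogallol. Prf1 averaged -0.54 ± 0.30 in pulegone, against 0.68 ± 0.20 in DMPT and 0.39 ± 0.24 in Pyrogallol. With the sign of DMPT and Pyrogallol turned, Ctsw (limma F test, adjusted p 0.0195) and Gzmk (0.0445) were called. Gzma (0.0772) and Prf1 (0.880) were then not called. The share of all probes called in that fit is not given here. Between the 3 studies of 18 months 0 of the 9 genes were called, with adjusted p of 0.780 or more and 0 at an unadjusted p under 0.05, beside 0.192% of all probes (limma).

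Genes that act beside the 9 were counted between 18 and 6 months, where 772 of 9651 genes rose and 639 fell. Of 16 other NK receptor and adaptor genes 3 rose and 1 fell: Klra5, a receptor gene of the Ly49 family, rose by 2.21 (SE 0.45, limma adjusted p 0.00254), Tnfsf10, the death ligand TRAIL, rose by 1.93 (SE 0.39, adjusted p 0.00230), and Cd96, an adhesion receptor, fell by 1.02 (SE 0.22, adjusted p 0.00395). Of 20 further genes of granules, secretion and cell death 2 rose: Fas, the receptor for Fas ligand, by 3.54 (SE 0.55, adjusted p 0.000167), and Serpinb9, an inhibitor of granzyme B, by 2.52 (SE 0.67, adjusted p 0.0132). Of 18 regulators and cytokines Ets1 rose by 0.50 (SE 0.17, adjusted p 0.0478) and Stat4 fell by 1.07 (SE 0.34, adjusted p 0.0319). Of 15 chemokines and homing receptors Cxcl16 rose by 2.10 (SE 0.60) and Vcam1 by 1.99 (SE 0.52).

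Markers of other cell types were counted in the same comparison. Of 18 T cell markers 3 rose, Cd5 by 4.13 (SE 0.99), Cd3g by 2.70 (SE 0.48) and Cd6 by 1.11 (SE 0.33), and of 16 macrophage markers 4 rose, led by Mmp12 with 4.73 (SE 1.06), Gpnmb with 3.28 (SE 0.61) and Trem2 with 1.80 (SE 0.35). Of 15 genes of the interferon gamma response and antigen presentation 4 rose and 1 fell, with Ubd, a ubiquitin-like modifier, higher by 3.94 (SE 0.71). Of 11 markers of endothelium, bile ducts and stellate cells 3 rose and 2 fell. Of 6 B cell markers and of 6 dendritic cell markers 1 rose and 1 fell each, 1 of 9 mast cell markers rose, 1 of 11 hepatocyte markers and 1 of 20 proliferation genes fell, and of 6 neutrophil and 9 erythroid markers 0 passed.

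These calls rest on the direction of the DMPT and Pyrogallol arrays. With their sign turned, 0 genes of any list passed the threshold, beside 3 of 9651 genes that rose and 9 that fell (limma), and 12 of the 34 called genes of the lists changed sign, among them Mmp12 (-1.33), Gpnmb (-0.62), Cxcl16 (-0.08) and Ets1 (-0.04). Against the pulegone study alone, no gene of these lists was called, and between 18 and 12 months none was either (limma). List medians between 18 and 6 months were 0.21 for the 9 genes, -0.10 for the other NK genes, 0.06 for T cell markers and 0.34 for macrophage markers, beside -0.06 over all genes. With the sign turned they were 0.18, 0.03, 0.19 and -0.39 in the same order, beside -0.001 over all genes.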

How the data were processed

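The authors deposited 1 table of scores for 38 two-colour arrays read with Feature Extraction software, per the labels. Each deposited score column had a mean near 0 and an SD near 1, found from the values; how they were normalized and scaled is not given in the sources used here. Scale and centring before deposit, and signal over background, stay unknown. Direction was read from the labels' dyes. Tests were planned for scores or log ratios, whichever had been deposited, and were run on these scores. Of 20277 probes, 12594 had 1 symbol in the platform annotation, 5 several and 7678 none listed; 12565 matched RefSeq.

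limma 3.58.1 (R 4.3.3; two-sided, Benjamini-Hochberg over all probes, threshold 0.05) was fitted to all 38 arrays. Age comparisons had study as a random block (correlation 0.425). Single rats were fitted as an indicator beside 8 study means, the lone rat being assumed to vary like the others. Rats are separate animals. Steps were tested on simulated data. Log ratios recovered from the even grid of each array's values (base not stated) were an alternative. Genes named are all 9 measured members, up to 3 called genes per list, the 10 genes most like the member mean and, in an 18-month rat with a member called, the 10 largest rises and 5 largest falls; others named in single rats were chosen after their values were seen. Members and lists were chosen with earlier results of these data known. Numbers of arrays limit the precision. Descriptions used Python 3.11.15 with pandas 2.3.3, and figures matplotlib 3.10.9.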

Additional observations from a re-analysis of the deposited data

Results flagged for a closer look

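Within studies of 5 rats, 63 sets of scores (9 genes in 7 studies) were tested for a rat far from the others, and 4 had one, where chance flags about 1 in 20. Gzmk was -2.21 in rat 3 of the DMPT study, far below the other 4 rats. Klrd1 was -0.59 in rat 4 of the beta-myrcene study, below 0.38 to 0.56 in the others. Ncr1 was 2.24 in rat 4 of the Pyrogallol study, and Faslg was -0.62 in rat 2 of that study. The high Gzmk scores of rat 4 of the 5-hydroxymethyl-2-furfural study and rat 5 of the beta-myrcene study did not reach the same limit.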

How the results depend on the processing

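No paired analysis was possible because the rat numbers follow sample order and pair nothing. The count of the 9 genes called was 0 in each age comparison. With study ignored it was 3 between 18 and 6 months (Ctsw, Faslg, Gzmk), 2 between 12 and 6 months (Gzmk, Prf1) and 1 between 18 and 12 months (Prf1). Without the pulegone study it was 2 between 18 and 6 months and 1 between 12 and 6 months (Prf1, limma adjusted p 0.0140). The 6-month rats were then those of DMPT and Pyrogallol alone, whose direction is not settled. The share of all probes called under these and the other changed settings below is not given here. Whether the counts exceed that share was therefore not tested. Leaving out 1 rat at a time gave 0 to 1 between 18 and 6 months, 1 being Ctsw without rat 2 of the 5-hydroxymethyl-2-furfural study. The single call among 18-month rats, Ctsw in rat 2, became 0 with the spread of the 18-month studies alone (adjusted p 0.151), on recovered log ratios (0.0881), against all other 18-month rats (0.304) and with adjustment over all 38 rats (0.249), and ranged from 0 to 1 when 1 rat was left out. Against all other 18-month rats, 1 gene instead of 4 had an unadjusted p under 0.05 in rat 5 of the beta-myrcene study; leaving out 1 rat gave 3 to 5 there and 4 to 5 in rat 4 of the 5-hydroxymethyl-2-furfural study. Of the 10 genes most like the member mean, 4 were shared with the ranking by Spearman's rho and 5 with that without rat 4. Between studies of the same age 3 genes were called, 2 with the DMPT and Pyrogallol arrays turned and 2 to 4 with 1 rat left out. Of the 34 genes of the other lists called between 18 and 6 months, 12 changed sign and 0 passed with the DMPT and Pyrogallol arrays turned. The cause of these shifts was not tested. The alternatives that drop the 2 high rats, turn the sign in the study comparison, recover log ratios against pulegone, count unadjusted p, and turn the sign for the ranks and the list genes were added after seeing the data. Setting the places beside recovered log ratios was added likewise.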
